A study of Mus musculus with 2 samples.

Results

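The genes described here are 35 genes of microglia and of the complement system, chosen by name, each matching 1 gene row, out of 55573, in the table of a mouse hippocampal RNA-seq study. They were set apart by role as 12 homeostatic microglial genes, 6 complement genes, 8 lysosomal and activation genes, and 9 genes of myeloid identity and signalling. The rule that picks them uses no measured value, but the members were chosen with earlier results of these data known. Of the 35 genes, 28 had an FPKM (a count scaled by the exonic length of the gene and by the library total) of at least 1 in both libraries, and the other 7 were below 1 in both.

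One sample was the hippocampus of *Cdh5-CreERT2;CDK5f/f* mice on a C57BL/6 background that had received tamoxifen (the mutant library), and it was compared with the hippocampus of untreated *CDK5f/f* mice of the same strain (the control library). *Cdh5-CreERT2* is a tamoxifen-inducible Cre recombinase driven by the promoter of an endothelial cadherin gene, so the floxed *CDK5* allele, which both genotypes carry, is lost in cells where Cre is active. The series text names the CA1 region, whereas the labels name the hippocampus, and the age of the mice and the number of mice per library are not in the labels. The comparison asks how the hippocampal transcriptome differs once endothelial *CDK5* has been deleted.

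Each genotype had 1 library, with 18900847 counts in the mutant and 19451827 counts in the control, so the values below stand without replicates and without p-values, and genotype and tamoxifen cannot be told apart. *Xist*, expressed from the inactive X chromosome of females, had 34 counts in the mutant library and 15070 in the control library, while the Y-linked *Ddx3y* had 771 and 0 counts, so sex cannot be told apart from genotype either. All 13 choroid plexus markers listed were higher in the mutant, and their summed count was 14.4 times that of the control library (118316 and 8468 counts). The part of this tissue in the values below was not tested. *Cdk5* itself had 1257 counts in the mutant library and 1261 in the control library (ratio 1.03), a value from all cells of the tissue that does not check its loss from the endothelium. In RNA of whole tissue, fewer microglia and less RNA per microglial cell cannot be told apart.

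Microglia are the resident macrophages of the brain. Their identity rests on the transcription factor PU.1, encoded by *Spi1*, and their survival on signals through the receptor CSF1R. In the undisturbed brain they hold a homeostatic programme of purinergic and chemokine receptors. On contact with debris or injured cells that programme can give way to receptors, adaptors and lysosomal proteins of phagocytosis. They are also the main source of C1q in the brain, the molecule that opens the classical complement pathway and marks synapses and debris for removal through C3 and its receptors.

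The promoters of several members hold the letters to which PU.1 is known to bind, and the stretches around them in *C1qb*, *C1qc*, *Lyz2* and *P2ry12* are shown. These 4 genes were picked with their ratios known. The counting interval, described below, lay above 1 for *Lyz2*, below 1 for *C1qb* and *P2ry12*, and held 1 for *C1qc*. They are RefSeq sequences of GRCm38.p6, each 59 bases long, written along the minus strand, on which all 4 genes lie. The capitals mark AGGAAGT or its reverse complement ACTTCCT. The *C1qb* stretch is chr4:136886221-136886279, with the match beginning 53 bases before the start site, and the *C1qc* stretch is chr4:136893077-136893135, with the match 195 bases before it. The *Lyz2* stretch is chr10:117282340-117282398, with the match 100 bases before the start site, and the *P2ry12* stretch is chr3:59263005-59263063, with the match 52 bases before it. All 4 stretches lie outside the span that the deposited table gives for the gene.
C1qb: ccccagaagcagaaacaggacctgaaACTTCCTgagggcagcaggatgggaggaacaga
C1qc: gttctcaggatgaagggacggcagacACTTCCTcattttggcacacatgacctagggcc
Lyz2: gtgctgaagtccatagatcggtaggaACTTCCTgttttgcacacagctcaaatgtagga
P2ry12: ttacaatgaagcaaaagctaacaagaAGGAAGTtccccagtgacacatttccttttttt

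RefSeq promoter windows, which run from 250 bases before to 50 bases after a start site, were given for 27 of the 35 members. On either strand, AGGAAGT was found in the windows of 9 of these 27 genes (33.3%), namely *C1qb*, *C1qc*, *Cd53*, *Fcrls*, *Inpp5d*, *Lyz2*, *P2ry12*, *Ptprc* and *Sall1*, against 10.7% of the 27025 genes with a window. GAGGAAG was found in 9 (33.3%), against 15.4% of all genes. The 8-letter GAGGAAGT, which contains both shorter spellings, was found in *C1qc*, *Cd53* and *Inpp5d* (11.1%), against 3.69%. These are matches of letters and not measured sites of binding, and the genes that held them had ratios on both sides of 1.

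Few of these genes differed much between the libraries. On the scale of log2(FPKM + 1), 2 of the 28 genes above the minimum were at least 1.5-fold lower in the mutant library, *Gpr34* and *Aif1*, and none was 1.5-fold higher. That is 7.14% of the members past 1.5-fold, against 6.81% of all 14778 genes that reached an FPKM of 1 in either library. Of all these genes 3.65% were higher and 3.16% lower. The median log2 ratio was -0.05 over the 28 members and 0.00 over all 14778 genes. Of the 28 members, 10 had a ratio above 1 and 18 below it, against 7426 and 7281 of all genes. The share of members past 1.5-fold was thus close to that of all genes, although both members that passed lay on the lower side.

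A finer view came from the counting interval, the exact 95% interval (Clopper-Pearson) of the ratio of counts per library total, which covers counting error only and compares these 2 libraries, not the genotypes. It lay apart from 1 for 13 of the 28 members (46.4%), against 37.5% of all genes. It lay above 1 for *Csf1r*, *C1qa*, *Lyz2* and *Fcgr3*, which is 14.3% of the members against 19.7% of all genes. It lay below 1 for *Cx3cr1*, *P2ry12*, *Olfml3*, *Fcrls*, *Gpr34*, *Sall1*, *C1qb*, *Fcer1g* and *Aif1*, which is 32.1% against 17.9%. The median count of both libraries together was 515 for these members and 969 for all genes, so intervals were wider for the members.

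**Figure D1:**
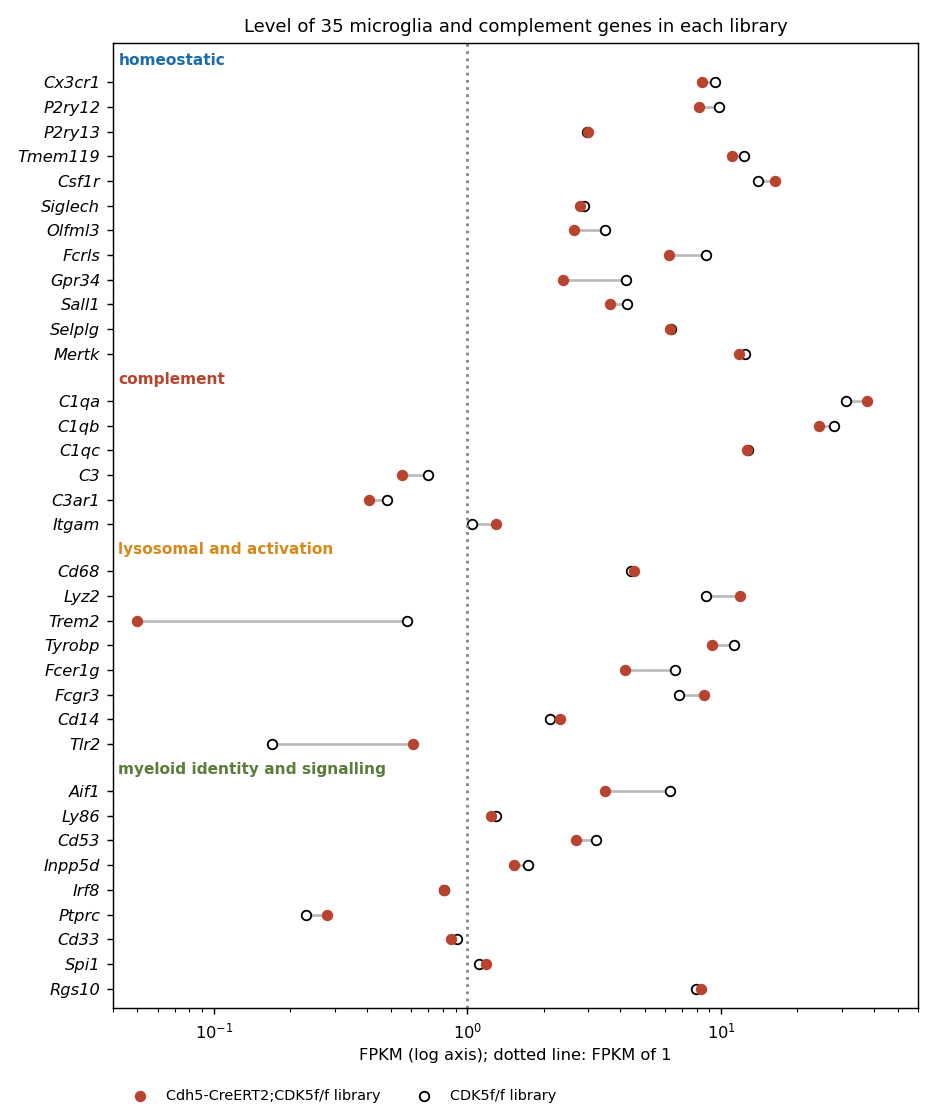
FPKM of the 35 genes (horizontal log axis) in the mutant library (filled points) and the control library (open points), 1 library each, grouped by role from top to bottom. The points of most genes nearly touch, with C1qa highest in both libraries and wider gaps at Gpr34, Fcer1g, Aif1 and, below the FPKM of 1 marked by the dotted line, Trem2 and Tlr2.

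Most homeostatic genes had ratios slightly below 1, and 1 of them, *Gpr34*, was lower by over 1.5-fold. All 12 were above the minimum, 10 had a ratio below 1 and 2 above it, and their median log2 ratio was -0.15. Of the 2 above it, *P2ry13* turned to a log2 ratio of -0.001 with median-of-ratios scaling. Among all 14778 genes, 7281 ratios were below 1 and 7426 above it. The counting interval lay below 1 for 6 of the 12 genes and above it for 1, against 17.9% and 19.7% of all genes. The counts of the 12 genes summed to 6213 in the mutant library and 6778 in the control library, a ratio of 0.943 (counting interval 0.911 to 0.977).

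*Gpr34*, a receptor for lysophosphatidylserine that lies on the X chromosome (13632089 to 13640858), had 94 counts in the mutant library and 171 in the control library, an FPKM of 2.38 and 4.21. Its log2 ratio was -0.62 and its count ratio 0.566 (counting interval 0.435 to 0.732). It was the homeostatic gene with the lowest ratio, and also the one with the fewest counts over both libraries. *Fcrls*, an Fc receptor-like gene of mouse microglia, came next, with 276 counts in the mutant library and 397 in the control library (FPKM 6.26 and 8.74, ratio 0.715, interval 0.611 to 0.836). *Olfml3*, which encodes a secreted olfactomedin-like protein, had 306 and 420 counts (FPKM 2.63 and 3.50, ratio 0.750, interval 0.645 to 0.871). Both stayed within 1.5-fold, with intervals below 1.

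The receptors that define resting microglia were closer between the libraries. *P2ry12*, the ADP receptor that steers microglial processes, had 395 counts in the mutant library and 488 in the control library (FPKM 8.21 and 9.85, ratio 0.833, interval 0.728 to 0.953). *Cx3cr1*, the receptor for the neuronal chemokine fractalkine, had 714 and 828 counts (FPKM 8.39 and 9.45, ratio 0.887, interval 0.802 to 0.982). *P2ry13*, a second ADP receptor gene next to *P2ry12* on chromosome 3, had 143 and 146 counts, and its interval of 0.795 to 1.28 held 1. The neighbouring pair of purinergic receptor genes therefore had intervals that overlapped each other, one below 1 and one holding it.

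*Sall1*, a transcription factor that keeps microglia in their resting identity, had 363 counts in the mutant library and 436 in the control library (FPKM 3.65 and 4.26, ratio 0.857, interval 0.743 to 0.987). *Tmem119*, a membrane protein used as a marker of microglia, had 483 and 556 counts (FPKM 11.0 and 12.4, ratio 0.894, interval 0.790 to 1.01). Their ratios were alike, and the interval of *Tmem119* just held 1. *Siglech*, a sialic acid-binding lectin, had 178 and 189 counts (ratio 0.969, interval 0.785 to 1.20). *Selplg*, the P-selectin ligand, had 508 and 529 counts (ratio 0.988, interval 0.873 to 1.12). *Mertk*, a receptor for the engulfment of apoptotic cells that astrocytes also express, had 966 and 1046 counts (ratio 0.95, interval 0.870 to 1.04). The last 3 genes could not be separated from equal levels at this depth.

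*Csf1r*, the receptor for CSF1 and IL-34, went the other way, with 1787 counts in the mutant library and 1572 in the control library (FPKM 16.4 and 14, log2 ratio 0.21, ratio 1.17, lower bound of the interval 1.09). It had the most counts of the 35 members, and the difference was within 1.5-fold. Of its exonic bases, 15.1% overlap exons of *Hmgxb3* on the opposite strand, a gene with 1021 counts in the mutant library and 1127 in the control library. The strand setting of the counting was not stated in the sources read, so the part of these shared bases in the *Csf1r* counts was not tested.

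The 6 complement genes did not move together. *C1qa*, *C1qb* and *C1qc*, which encode the A, B and C chains of C1q and lie side by side on chromosome 4, were among the highest members in both libraries, and each took its own course. *C1qa* had 741 counts in the mutant library and 627 in the control library (FPKM 37.7 and 31.0, log2 ratio 0.27, ratio 1.22, interval 1.09 to 1.35). *C1qb* had 500 and 591 counts (FPKM 24.3 and 27.9, log2 ratio -0.19, ratio 0.871, interval 0.771 to 0.982). *C1qc* had 460 and 478 counts (FPKM 12.6 and 12.7, ratio 0.99, interval 0.869 to 1.13). The intervals of *C1qa* and *C1qb* did not overlap, and all 3 ratios were within 1.5-fold.

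Summed over the 3 chains the libraries were alike within counting error, with 1701 counts in the mutant library and 1696 in the control library (ratio 1.03, interval 0.964 to 1.10). The FPKM of *C1qa* was 1.55 times that of *C1qb* in the mutant library and 1.11 times in the control library. That of *C1qb* was 1.93 times that of *C1qc* in the mutant library and 2.19 times in the control library. The order of the 3 chains, *C1qa* over *C1qb* over *C1qc*, was the same in both libraries. C1q is assembled from equal numbers of the 3 chains, and these values concern their RNA only.

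Downstream of C1q, levels were low. *C3*, the central component that is cleaved to tag surfaces, had 53 counts in the mutant library and 70 in the control library (FPKM 0.55 and 0.70), and its interval of 0.535 to 1.13 held 1. *C3ar1*, the receptor for the fragment C3a, had 33 and 40 counts (FPKM 0.41 and 0.48, interval 0.519 to 1.38). Both were below the FPKM minimum, where a difference of this size was not detectable. *Itgam*, the alpha chain of complement receptor 3 (CD11b), had 123 and 102 counts (FPKM 1.30 and 1.04, ratio 1.24, interval 0.947 to 1.63). Of its exonic bases, 68.7% are also annotated on the same strand to the predicted gene *Gm49368*, which had 0 counts in the mutant library and 1 in the control library, and the fate of reads matching both genes was not stated in the sources read.

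**Figure D2:**
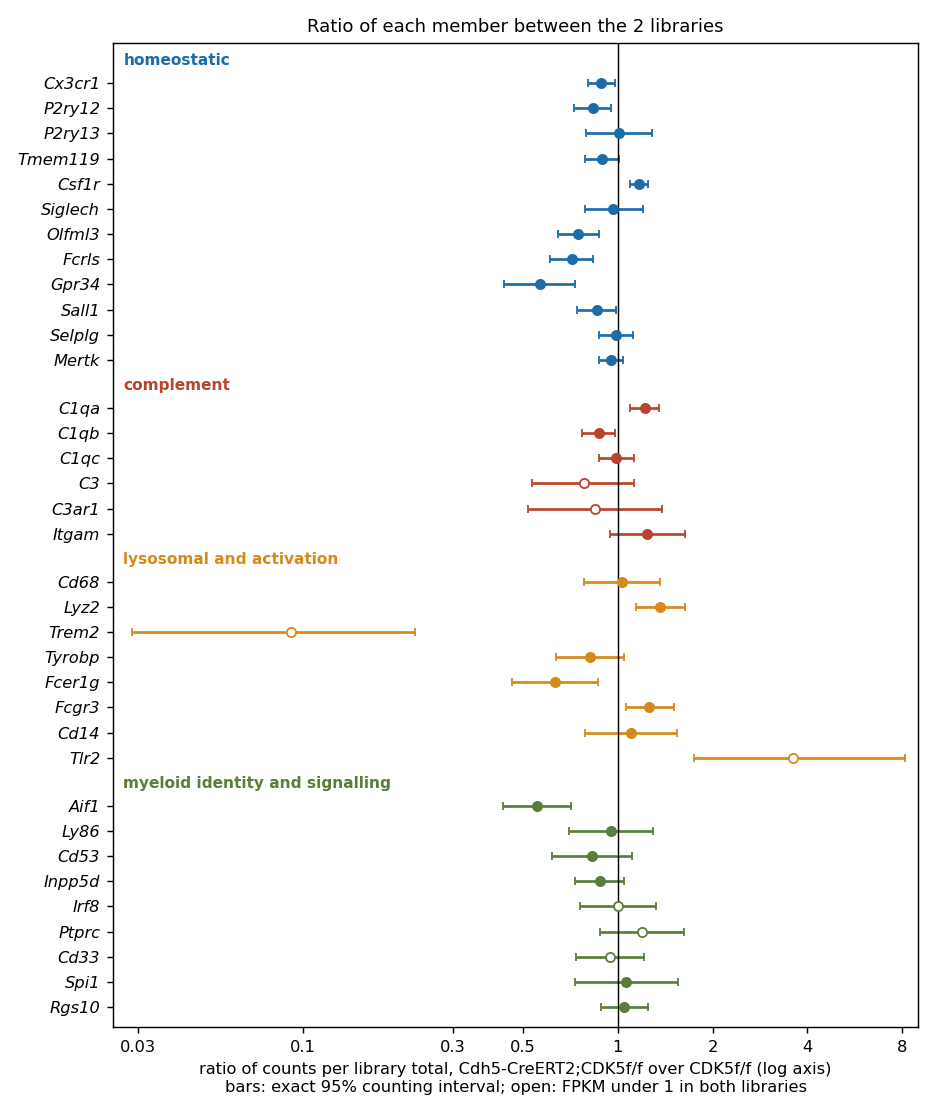
Ratio of counts per library total, mutant over control (horizontal log axis), for the 35 genes grouped by role, with the exact 95% counting interval as a bar. Open points had an FPKM under 1 in both libraries. Most homeostatic genes lie slightly left of 1 and Csf1r right of it, the C1q chains lie on different sides, and Trem2 (0.0919) and Tlr2 (3.60) lie farthest out with wide intervals.

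The lysosomal and activation genes took both directions. Of the 8, 6 were above the minimum, none passed 1.5-fold, 4 had a ratio above 1 and 2 below it, and the median log2 ratio was 0.06. Together with the complement genes above the minimum, 6 of 10 ratios were above 1 and 4 below it, with a median of 0.06 as well. The median of the homeostatic genes was lower than that by 0.22 on the log2 scale, a difference that stands for these 2 libraries and has no test. It was 0.135 with an FPKM minimum of 5.

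*Lyz2*, the lysozyme of macrophages, was the member above the minimum with the highest ratio. It had 295 counts in the mutant library and 223 in the control library (FPKM 11.9 and 8.71, log2 ratio 0.41, ratio 1.36, interval 1.14 to 1.63). Its near-identical copy *Lyz1* (95.8% of bases over the aligned transcript) had 0 counts in the mutant library and 2 in the control library. *Fcgr3*, an activating receptor for IgG, had 282 and 230 counts (FPKM 8.59 and 6.81, log2 ratio 0.30, ratio 1.26, interval 1.06 to 1.51). Both genes stayed within 1.5-fold with intervals above 1, and both are also expressed by macrophages at the borders of the brain.

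*Fcer1g*, the gamma chain through which such Fc receptors signal, lay on the other side of 1 from *Fcgr3*. It had 69 counts in the mutant library and 112 in the control library (FPKM 4.18 and 6.59, ratio 0.634, interval 0.463 to 0.863). Its log2 ratio of -0.55 fell just short of the 0.58 that 1.5-fold means on this scale. *Tyrobp*, the related adaptor DAP12, which carries the signal of TREM2, had 116 and 146 counts (FPKM 9.20 and 11.2, ratio 0.818, interval 0.635 to 1.05). Both adaptors had ratios below 1, with the interval of *Tyrobp* holding 1.

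*Trem2*, the lipid-sensing receptor needed for microglia to enter the disease-associated state, had 5 counts in the mutant library and 56 in the control library, the widest relative gap of all 35 members. The count ratio was 0.0919 (interval 0.0287 to 0.227). Its FPKM was 0.05 in the mutant library and 0.58 in the control library, so it did not reach the minimum and is not among the genes counted as lower. The length in the deposited FPKM, 4946 bases, is that of all annotated exons together. With the 1088 bases of the longest protein-coding transcript, the FPKM would be 0.243 in the mutant library and 2.65 in the control library, a log2 ratio of -1.55. The partner *Tyrobp* did not show a gap of that size, and the 5 counts come from a single library.

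*Tlr2*, a receptor for bacterial lipoproteins that is induced in activated myeloid cells, was the opposite case, with 35 counts in the mutant library and 10 in the control library (FPKM 0.61 and 0.17, ratio 3.60, interval 1.75 to 8.16). It too was below the minimum in both libraries. *Cd68*, the macrosialin of late endosomes and lysosomes, had 108 counts in each library (FPKM 4.55 and 4.42, interval 0.781 to 1.36). *Cd14*, the co-receptor for lipopolysaccharide, had 76 and 71 counts (FPKM 2.32 and 2.11, interval 0.787 to 1.54). The receptors of bacterial products and the lysosomal marker thus gave 1 interval above 1, at low counts, and 2 that held it.

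Among the 9 genes of myeloid identity and signalling, 6 were above the minimum, with a median log2 ratio of -0.08, 2 ratios above 1 and 4 below it. *Aif1*, which encodes the actin-binding protein IBA1 used to stain microglia, was the only one past 1.5-fold. It had 101 counts in the mutant library and 187 in the control library (FPKM 3.49 and 6.28, log2 ratio -0.70, ratio 0.556, interval 0.432 to 0.712). *Aif1* lies on chromosome 17 (35170991 to 35176068) and shares no exonic base with another annotated gene. It had the lowest log2 ratio of the 28 members above the minimum.

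*Spi1*, the gene of PU.1, had 60 counts in the mutant library and 58 in the control library (FPKM 1.18 and 1.11, ratio 1.06, interval 0.730 to 1.55). *Irf8*, the transcription factor that works with PU.1, had 108 and 111 counts (FPKM 0.81 in both, interval 0.761 to 1.32). The interval of *Aif1* lay below that of both transcription factor genes. *Ptprc*, the CD45 phosphatase of all leukocytes, had 96 and 83 counts (FPKM 0.28 and 0.23, interval 0.878 to 1.62).

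The remaining genes of this group had intervals that held 1. *Rgs10*, a regulator of G-protein signalling, had 270 counts in the mutant library and 264 in the control library (FPKM 8.35 and 7.93, ratio 1.05). *Inpp5d*, the SHIP1 phosphatase that restrains receptor signalling, had 220 and 258 counts (FPKM 1.53 and 1.74, interval 0.730 to 1.05). *Cd33*, an inhibitory lectin, had 126 and 137 counts (FPKM 0.86 and 0.91, interval 0.737 to 1.21). These are all signalling proteins that limit or adjust the response of the cell. *Cd53*, a tetraspanin of leukocytes, had 88 and 109 counts (FPKM 2.67 and 3.22, interval 0.620 to 1.11). *Ly86*, the MD-1 partner of the receptor CD180, had 85 and 92 counts (FPKM 1.24 and 1.30, interval 0.70 to 1.29).

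**Figure D3:**
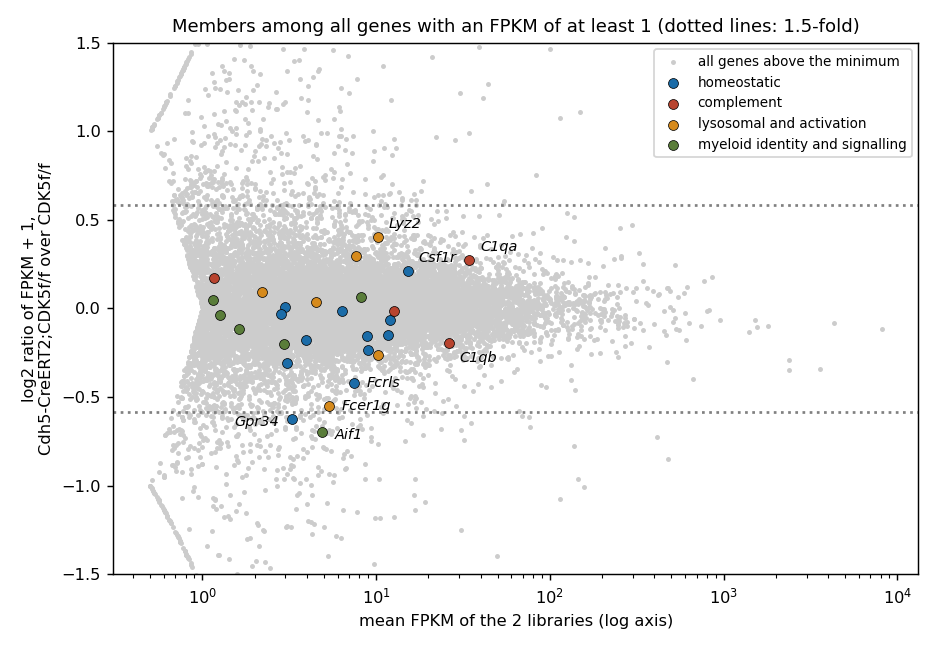
Log2 ratio of FPKM + 1, mutant over control, against the mean FPKM of both libraries (log axis) for the 14778 genes that reached an FPKM of 1 in either library, with the 28 members above the minimum in colour by role; 163 genes lie beyond the vertical axis. Only Gpr34 and Aif1 are outside the dotted lines at 1.5-fold, and Fcer1g is just inside.

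Genes of the same pathways outside the members also took both directions, and the medians of their lists lay on both sides of that of all genes. Of 35 further microglial genes, 25 were above the minimum, with a median log2 ratio of -0.06, 8 ratios above 1 and 17 below it. *Ctss*, a lysosomal protease, had 964 counts in the mutant library and 997 in the control library, and its interval of 0.910 to 1.09 held 1. *Laptm5*, a lysosomal membrane protein, had 436 and 558 counts (ratio 0.804, interval 0.708 to 0.913), and *Cst3*, a protease inhibitor that other brain cells also express, 17116 and 18860 (ratio 0.934, interval 0.915 to 0.954). None of these 3 passed 1.5-fold, and 1 gene of the list did.

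That gene, *Ltc4s*, the leukotriene C4 synthase, was higher in the mutant library, with 167 counts against 50 in the control library (FPKM 8.71 and 2.53, log2 ratio 1.46, interval 2.49 to 4.81). Exons of *Gm26542* on the opposite strand overlap 26.4% of its exonic bases, and their part in its counts was not tested. No gene of the list was lower by 1.5-fold.

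Of 35 further complement genes and regulators, 17 were above the minimum, with a median log2 ratio of 0.05. *Serping1*, the inhibitor of the C1 proteases, was higher, with 232 counts in the mutant library and 140 in the control library (log2 ratio 0.62, ratio 1.71, interval 1.38 to 2.12). *Cd59a*, a surface inhibitor of the membrane attack complex, was lower, with 32 and 127 counts (FPKM 0.93 and 3.61, log2 ratio -1.26, ratio 0.259, interval 0.170 to 0.385). Its relative *Cd59b*, with 91.4% identical bases, had 4 and 23 counts. These regulators are also made by cells other than microglia.

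The proteases C1r and C1s, which C1q activates, and C2, which C1s cleaves, had few counts. *C1ra* had 27 counts in the mutant library and 29 in the control library, *C1s1* had 29 and 24, and *C2* had 48 and 57, all with an FPKM under 1 and an interval that held 1. *C4b*, the gene of C4, another substrate of C1s, had 1385 and 1908 counts (FPKM 12.9 and 17.2, ratio 0.747, interval 0.697 to 0.801), within 1.5-fold. Its copy *C4a*, with 98.3% identical bases over the aligned part, had 162 and 123 counts, so the split of reads between the 2 genes is uncertain.

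Of 25 genes of the disease-associated state of microglia, 17 were above the minimum, with a median log2 ratio of 0.11. The counting interval lay above 1 for 9 of the 17 and below 1 for 6, against 19.7% and 17.9% of all genes. These shares are not at like depth, because intervals are narrower at higher counts. The median FPKM of the 17 genes was 20 in the mutant library and 18.4 in the control library, against 5.87 and 5.79 over all genes. *Spp1*, the gene of osteopontin, was higher, with 149 counts in the mutant library and 13 in the control library (FPKM 4.78 and 0.41, log2 ratio 2.04, interval 6.69 to 22.7). On the same strand, 18.8% of its exonic bases are also annotated to *Gm42793*. *Cd52*, a leukocyte surface peptide, was lower, with 5 and 23 counts (FPKM 0.22 and 1.0, log2 ratio -0.71, interval 0.0664 to 0.602). It only just reached the FPKM minimum, and only in the control library. Exons of *Crybg2* on the opposite strand overlap 14.5% of its exonic bases. The lectin receptor gene *Clec7a* and the cystatin gene *Cst7*, both induced in this state, were at or near 0, with 2 and 0 counts for *Clec7a* and 1 count in each library for *Cst7*. *Apoe*, which astrocytes express strongly, had 32814 and 30351 counts (log2 ratio 0.15), and *Lpl*, a lipase that neurons express too, 613 and 786 (log2 ratio -0.25). The cathepsin genes *Ctsb*, *Ctsd*, *Ctsl* and *Ctsz* had ratios of 1.08, 1.32, 1.29 and 1.34. All stayed within 1.5-fold with intervals above 1, and all share some exonic bases with other annotated genes. *Ctss*, a cathepsin gene in the list of further microglial genes, had a ratio of 0.995. The 6 genes of the disease-associated list with intervals below 1 were *Cd52*, *Lpl*, *B2m* (ratio 0.75), *Csf1* (0.854), *Axl* (0.891) and *Fth1* (0.948).

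Markers of other cells were read beside these results. Of 10 genes of border macrophages, 1 was above the minimum. They summed to 728 counts in the mutant library and 658 in the control library (ratio 1.14, interval 1.02 to 1.27), and none was at 0. The 4 listed first were *Mrc1* with 56 and 46 counts, *Cd163* with 31 and 28, *Lyve1* with 22 and 22, and *Pf4* with 12 and 12. *F13a1*, the gene of a coagulation factor subunit, was the only one with an interval apart from 1, with 68 and 31 counts (ratio 2.26, interval 1.46 to 3.57). Without *F13a1* the other 9 genes summed to 660 and 627 counts (ratio 1.08, interval 0.970 to 1.21). Without *Stab1*, which holds most counts of the list and is near equal, 9 genes summed to 226 and 168 (ratio 1.38, interval 1.13 to 1.70). That sum still includes the 68 and 31 counts of *F13a1*, and a sum without both genes was not computed.

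Of 20 blood leukocyte genes, 2 were above the minimum and 3 were at 0 in both libraries. The list summed to 239 counts in the mutant library and 219 in the control library (interval 0.931 to 1.36), but *Ighm*, an immunoglobulin heavy chain gene, held 158 and 191 of them. The other 19 genes summed to 81 and 28 counts (ratio 2.98, interval 1.92 to 4.75), and 14 of the 16 that were counted had a ratio above 1. Among them the neutrophil genes *Ngp* and *S100a8* had 11 and 8 counts in the mutant library and 1 and 0 in the control library. Of those 14, *Nkg7* with 5 counts in each library and *Cd8a* with 1 in each lay above 1 only through the library totals. Blood leukocyte markers other than *Ighm* thus summed to more counts in the mutant library, at low counts. *Ighm* was set aside after the results were seen, and the interval of the full list held 1. *S100a9*, a neutrophil gene, was past 1.5-fold with 21 and 11 counts, but its interval of 0.906 to 4.51 held 1. *Ccr2*, the receptor of blood monocytes, had 3 counts in the mutant library and 1 in the control library. The part of border macrophages and blood leukocytes in the values of the members, *Lyz2*, *Fcgr3* and *Tlr2* included, was not tested.

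Of the 6 erythrocyte genes, *Hbb-bt* was higher with 101 counts in the mutant library and 64 in the control library, *Hba-a2* was lower with 18 and 61, and the list summed to 2081 and 2021 counts (interval 0.996 to 1.13). *Hbb-bs* (885 and 904 counts) and *Hba-a1* (963 and 913) held most of these counts, with intervals that held 1. Copies of the globin genes were not searched for, and the treatment of reads with several matches is not given. No marker of neurons (10 genes), astrocytes (8), oligodendrocytes (8) or endothelium (8) passed 1.5-fold, and their median log2 ratios were -0.04, -0.15, -0.01 and -0.08. The astrocyte median was as low as that of the homeostatic microglial genes. The choroid plexus genes stood far from all of them, with a median of 2.68, led by *Ttr* with 78546 counts in the mutant library and 2797 in the control library.

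**Figure D4:**
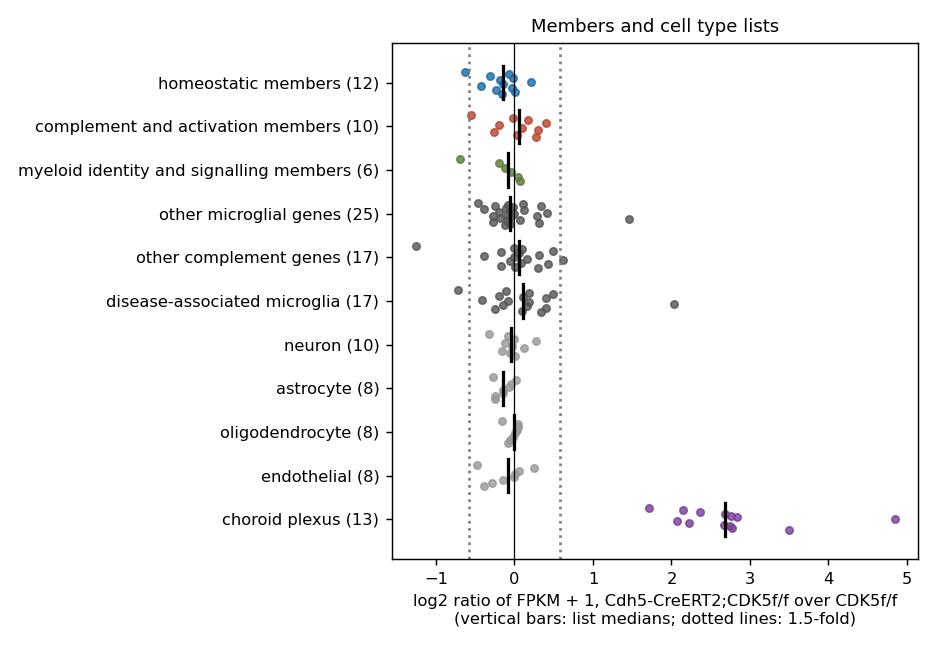
Log2 ratio of FPKM + 1, mutant over control, for each gene above the FPKM minimum in the member groups and in lists of other genes (number of genes in brackets), with list medians as vertical bars and 1.5-fold as dotted lines. The medians of the lists drawn here lie between -0.15 and 0.11 except that of the choroid plexus at 2.68.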

How the data were processed

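RNA-seq libraries of hippocampal tissue from *Cdh5-CreERT2;CDK5f/f* and *CDK5f/f* mice, 1 each, were analysed. Any other library of the study was not used here. Raw counts and FPKM per gene were deposited by the authors. FPKM is the count scaled by exonic length and by the library total, as recomputed from the counts. The deposited table adds up to 18900847 counts in the mutant library and 19451827 in the control library. The tools in the submitters' processing notes are HTSeq 0.6.1, HISAT2 2.0.1, cutadapt 1.9.1 and DESeq2. The notes give the build as mm9, but the coordinates are those of GRCm38: of 55480 identifiers shared with GENCODE mouse release 21, 55304 have the same start and end. Strand setting and the treatment of reads with several matches are not given in the sources used here.

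Log2 ratios, mutant over control, were computed from FPKM with a pseudocount of 1, which shrinks the ratios of low genes, for genes reaching an FPKM of 1 in either library. Past 1.5-fold counted as higher or lower. Ratios of counts per library total carry exact 95% intervals (Clopper-Pearson), which cover counting error only. With 1 library per genotype no test was possible. The ratio, interval and call steps were tested on simulated data.

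The members and lists were chosen with earlier results of these data known. All 35 members are named, and of each other list the genes past 1.5-fold and the 4 listed first, where the text treats that list by gene, with *Lyz1*, the copy of *Lyz2*. One gene that this rule names is not reported here. *Hmgxb3*, *Gm49368*, *Gm26542*, *Gm42793*, *Crybg2*, *Cd59b* and *C4a* were named after the results were seen, as overlapping genes or copies. So were the cathepsin genes *Ctsb*, *Ctsd*, *Ctsl* and *Ctsz*, and *B2m*, *Axl* and *Fth1*. So were *F13a1*, *Stab1*, *Ighm*, *Ngp*, *S100a8*, *Nkg7*, *Cd8a*, *Hbb-bs* and *Hba-a1*, with the sums that leave out 1 gene of a marker list. Alternatives were pseudocounts of 0.1 and 0.5, an FPKM minimum of 5 or none, DESeq2-style median-of-ratios and edgeR TMM scaling, folds of 1.25 and 2, a 99% interval and other groupings. Copies were searched with BLAST 2.17.0 in GENCODE transcripts. Computations used R 4.3.3 with edgeR 4.0.16, and Python 3.11.15 with scipy 1.17.1, pandas 2.3.3, numpy 2.4.6 and matplotlib 3.10.9.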

Additional observations from a re-analysis of the deposited data

How the results depend on the processing

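The count of members past 1.5-fold, 2 of 28, became 1 of 16 with an FPKM minimum of 5 (*Aif1*, 6.25% against 3.48% of all genes), 5 of 28 at the lower of the other folds tried (1 higher and 4 lower, 17.9% against 16.6%) and 0 at 2-fold (against 2.98%). It was 3 of 28, all lower, with a pseudocount of 0.1 or 0.5 (*Fcer1g* added, 10.7% against 11.7% and 9.11% of all genes). It was also 3, all lower, of 35 members with no minimum (8.57% against 5.16%) and of 32 with the length of the longest protein-coding transcript (9.38% against 7.16%), an alternative chosen after seeing the data, with *Trem2* added in both. Both scalings left it at 2, and they moved the median of all genes by no more than 0.011 on the log2 scale. A counting interval lay apart from 1 for 13 of 28 members in the main setting and with both scalings. It did so for 10 of 16 with an FPKM minimum of 5, 15 of 35 with no minimum and 10 of 28 with a 99% interval. The share of all genes was computed for the main setting only (37.5%), so these counts have no background beside them. The median log2 ratio of the homeostatic genes ranged between -0.17 and -0.13. That of the complement and activation genes ranged between -0.01, with an FPKM minimum of 5, and 0.09, so its sign turned there. The difference between the medians of these groups, 0.22, ranged between 0.135, with an FPKM minimum of 5, and 0.257, with counts per library total and no pseudocount. Leaving out a library was not possible with 1 per genotype. No paired analysis was possible because each genotype has 1 library. Depth limited *C3* and *C3ar1*, with at most 70 counts each and intervals that held 1. *Trem2* and *Tlr2* also had few counts and were below the FPKM minimum, but their intervals lay apart from 1.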

Other observations

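Ligands, co-receptors and adaptors of the members were read in the same way, as values only. Of 22 genes listed, 21 were found under that symbol and 11 were above the FPKM minimum, with a median log2 ratio of -0.06. The ligands of CSF1R took opposite sides, with 493 counts in the mutant library and 594 in the control library for *Csf1* (ratio 0.854, interval 0.756 to 0.964) and 997 and 864 for *Il34* (ratio 1.19, interval 1.08 to 1.30). *Cx3cl1*, the neuronal ligand of CX3CR1, had 10911 and 11028 counts (ratio 1.02, interval 0.992 to 1.05). *Tgfb1*, which keeps microglia in the homeostatic state, had 87 and 110 counts (interval 0.607 to 1.09).

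*Gas6*, a bridging ligand of MERTK, was the only one of them past 1.5-fold. It had 3136 counts in the mutant library and 2127 in the control library (FPKM 65.1 and 42.9, log2 ratio 0.59, ratio 1.52, interval 1.44 to 1.60), beside 966 and 1046 counts for the receptor *Mertk*. *Gas6* is expressed by several cell types of the brain and its borders.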
